A study of Homo sapiens with 8 samples.

Results

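The fucosyltransferases described here are FUT1, FUT2, FUT3, FUT4, FUT6, FUT7, FUT8, FUT10 and FUT11, 9 of the 43317 gene names on an Agilent 2-colour expression array. They were found by their gene name among the probes that are not controls, which gave 12 of 58201 probes: 2 each for FUT6, FUT10 and FUT11 and 1 for each other gene, every probe with 1 spot. FUT1 and FUT3 were chosen by their low ratio on the miR-490-3p array and FUT1 also by its high ratio on another array, so these values are given as a description without a test. The paper that reported the miR-490-3p array lists both genes as candidate targets of miR-490-3p. Its list also required a predicted binding site and higher expression in colon cancer tissue. RefSeq (GRCh38.p14) now lists FUT10 as POFUT3 and FUT11 as POFUT4, and the names printed on the array are kept here.

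The 8 arrays, from human cancer cell lines, shared 1 slide. Mock cells, which were not transfected, were labelled with Cy3, and cells of that line transfected by a lipid reagent were labelled with Cy5 and put on the same array. A498 and 786-O, renal cancer lines, received miR-139-5p on 1 array each and miR-139-3p on 1 array each. MDA-MB-231, a breast cancer line, received si-GINS1, with siRNA 1 on 1 array and siRNA 2 on the other, and HCT116, a colorectal cancer line, received miR-490-5p on 1 array and miR-490-3p on 1 array. The replicates of the miR-139 groups were therefore cell lines, those of si-GINS1 were siRNAs, and the miR-490 groups had none. No array had its dyes swapped and the mock cells had no control oligonucleotide, so dye, transfection and the agent itself cannot be told apart on any 1 array.

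Fucosyltransferases move fucose from GDP-fucose to sugar chains or to proteins. FUT1 and FUT2 make the H antigen, the base of the ABO blood groups, FUT1 as the enzyme of red cells and FUT2 as the secretor enzyme of mucosal epithelium. FUT3, the Lewis enzyme, FUT4, FUT6 and FUT7 put fucose on the inner part of such chains and make the Lewis antigens. Sialyl Lewis a and sialyl Lewis x, which FUT3 and FUT7 can complete, are bound by selectins and are known on colorectal cancer cells and leukocytes. FUT8 is the only enzyme known to add the core fucose of N-glycans, and FUT10 and FUT11 act in the endoplasmic reticulum on proteins.

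The arrays had 24980 to 29685 probes that were measured, which here means well above background in Cy3, in Cy5 or in both. The probe of GINS1, a subunit of the helicase complex of DNA replication, had a log2 ratio of -1.31 with siRNA 1 and -1.92 with siRNA 2, lower on both as labelled, and lay between -0.11 and 0.55 on the other arrays. In mock cells, 4 of 5 renal markers were well above background in A498 and in 786-O, against 1 in MDA-MB-231 and 2 in HCT116. Of 6 colorectal markers, 3 were above background in HCT116 and 2 in each other line. In HCT116 CDX2 reached a log2 level of 7.61 against at most 5.75 in the other lines, while VIL1, CDH17 and LGR5 were not above background there and the CDX1 probe above background was higher in A498 (7.12) than in HCT116 (6.81). Of 5 breast markers 4 were above background in MDA-MB-231, where KRT5 was not. There were 4 also in 786-O and 3 each in A498 and HCT116, so this list did not set MDA-MB-231 apart. A gene was counted when any of its probes was above background on both arrays. ESR1 entered through its brightest probe, at 5.99 in MDA-MB-231 and 6.09 in A498, while its other probes were above background in no line. The RNA was taken from whole cultures, so fewer cells with a transcript and less transcript per cell cannot be told apart.

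FUT8 and FUT4 were measured on every array, FUT1 on 7 of 8, FUT3 on 4, and FUT2 on 4, counted by whether either channel was well above background. Beside these, the first FUT11 probe and both FUT10 probes were measured on all 8 arrays. The log2 ratios of transfected over mock cells were largest, in either direction, for FUT1, FUT4, FUT8, FUT3 and FUT6, and all of these except FUT6 lay within 0.25 of 0 on the 4 renal arrays.

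**Figure D1:**
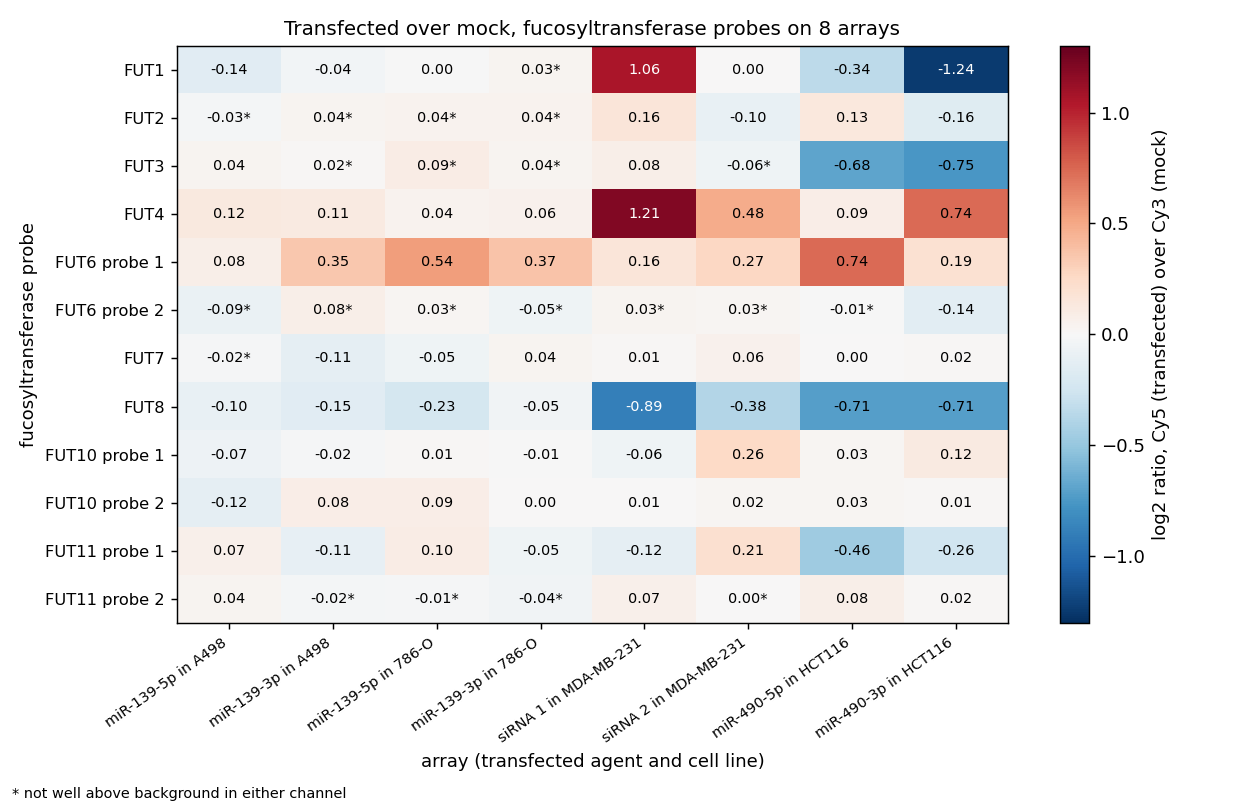
Log2 ratio of transfected over mock cells for each of the 12 fucosyltransferase probes (rows) on each of the 8 arrays (columns), with the value printed in each cell and an asterisk where the probe was not well above background in either channel. FUT1 has the lowest value, -1.24 with miR-490-3p, FUT4 the highest, 1.21 with siRNA 1, and FUT8 is below 0 on all 8 arrays, which median centring in place of loess did not keep on 2 renal arrays.

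The miR-490 arrays address which transcripts of HCT116 are lower after either strand of the miR-490 duplex is introduced. A miRNA pairs through its seed, bases 2 to 8, with sites in messenger RNAs and lowers their amount or translation. The mature strands are shown because these were the agents on the arrays where FUT1 and FUT3 were low, with the seed in capitals, from RefSeq (GRCh38.p14), miR-490-5p at chr7:136903205-136903224 and miR-490-3p at chr7:136903242-136903263, both on the plus strand.
hsa-miR-490-3p: cAACCUGGaggacuccaugcug
hsa-miR-490-5p: cCAUGGAUcuccaggugggu
The seeds of the 2 strands differ. The 7 letters CCAGGTT, which pair with the miR-490-3p seed, stood in none of the 12 member probes, and in 0.39% of all probes. For miR-490-5p the letters are ATCCATG, again in none of the 12 and in 0.448% of all. Neither strand of the member probes held them. A probe covers 60 bases of a transcript, so this says nothing of the rest of the transcript. The paper's list gives FUT1 and FUT3 a predicted miR-490-3p binding site each.

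FUT1 was lower in transfected than in mock HCT116 cells, by a log2 ratio of -1.24 when the 3p strand was introduced and -0.34 when the 5p strand was. Before normalization its spot read 450 in mock and 207 in transfected cells with miR-490-3p, and 402 and 336 with miR-490-5p. Both ratios lay below 0, and that of miR-490-3p was lower by 0.90 on the log2 scale. The FUT1 probe lies at chr19:49251268-49251325 (hg19, minus strand), 42.3 kb from the FUT2 probe at chr19:49208861-49208920 (plus strand). FUT2 was dim in HCT116 and had log2 ratios of 0.13 and -0.16 for the 5p and the 3p strand, and the offset of 50 pulled these toward 0. With an offset of 10 they were 0.32 and -0.38, and by the scanner software 0.57 and -0.61.

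FUT1 was the only member with a ratio as low as -1 or lower after miR-490-3p, a limit that 0.578% of 28356 probes passed there, and this count is fixed by the choice of FUT1. Counting FUT1 itself, 84 probes of the miR-490-3p array had a ratio as low or lower. No member reached 1, as 0.346% of probes did. On the miR-490-5p array no member passed either limit, against 0.963% of 27929 probes at or below -1 and 0.265% at or above 1.

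FUT3 was lower with either strand, at -0.68 for the 5p strand and -0.75 for the 3p strand. Its spot read 74.8 in mock and 34.1 in transfected cells with miR-490-5p, and 69.7 and 29.0 with miR-490-3p. The 2 strands thus gave FUT3 values that differed by 0.07, while those of FUT1 differed by more. FUT3 was well above background in mock cells of HCT116 alone among the 4 lines, and because it was dim there the offset of 50 added in the background correction pulled its ratio toward 0. With an offset of 10 the values were -1.28 and -1.48, and the scanner software gave -1.79 and -2.25, so FUT3 passes the limit of -1 on both arrays under those settings. The FUT3 probe lies at chr19:5843092-5843151 (hg19, minus strand), next to the FUT6 probes on the same chromosome.

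Among the members not chosen on these arrays, FUT8 stood at -0.71 with either strand. Its spot read 386 in mock and 239 in transfected cells with miR-490-5p, and 351 and 240 with miR-490-3p. Of all probes measured, 2.46% on the miR-490-5p array and 1.43% on the miR-490-3p array were as low or lower. The FUT8 probe lies at chr14:66209523-66209582 (hg19, plus strand). Less the mean ratio of the other cell lines, FUT8 stood at -0.41 with either strand. This takes away a dye effect common to the arrays, but also the responses of those lines. Among these was the FUT8 mean of -0.64 with si-GINS1, while the renal groups had means of -0.16 and -0.10. With 1 array for each strand there is no replicate check of the miR-490 values.

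FUT4, which makes Lewis x on myeloid and other cells, differed between the strands in the opposite direction to FUT1. Its log2 ratio was 0.09 for the 5p strand and 0.74 for the 3p strand, a difference of 0.65. The spot read 120 in mock and 136 in transfected cells with miR-490-5p, and 115 and 249 with miR-490-3p. On the miR-490-3p array 1.07% of probes were as high or higher, and less the mean ratio of the other cell lines FUT4 stood at 0.40 there and, with its sign turned, at -0.25 for the 5p strand. What was taken away also holds the FUT4 mean of 0.84 with si-GINS1, while neither renal group had a mean above 0.09. Whether the sign would turn without si-GINS1 was not tested. The FUT4 probe lies at chr11:94282932-94282991 (hg19, plus strand).

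The first FUT11 probe, at chr10:75535586-75535645 (hg19, plus strand), had log2 ratios of -0.46 and -0.26 for the 5p and the 3p strand. The first FUT10 probe gave 0.03 and 0.12 and the second 0.03 and 0.01. FUT7 (chr9:139925314-139925373, hg19, minus strand), the enzyme that makes selectin ligands on leukocytes, gave 0.00 and 0.02 at signals close to background. The FUT10 and FUT7 values lay within 0.12 of 0, while the first FUT11 probe was further from 0 than FUT1 on the miR-490-5p array. The first FUT6 probe gave 0.74 and 0.19 for the 5p and the 3p strand. On the miR-490-5p array 0.999% of probes were as high or higher. This FUT6 probe shares letters with other probes, as given below.

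**Figure D2:**
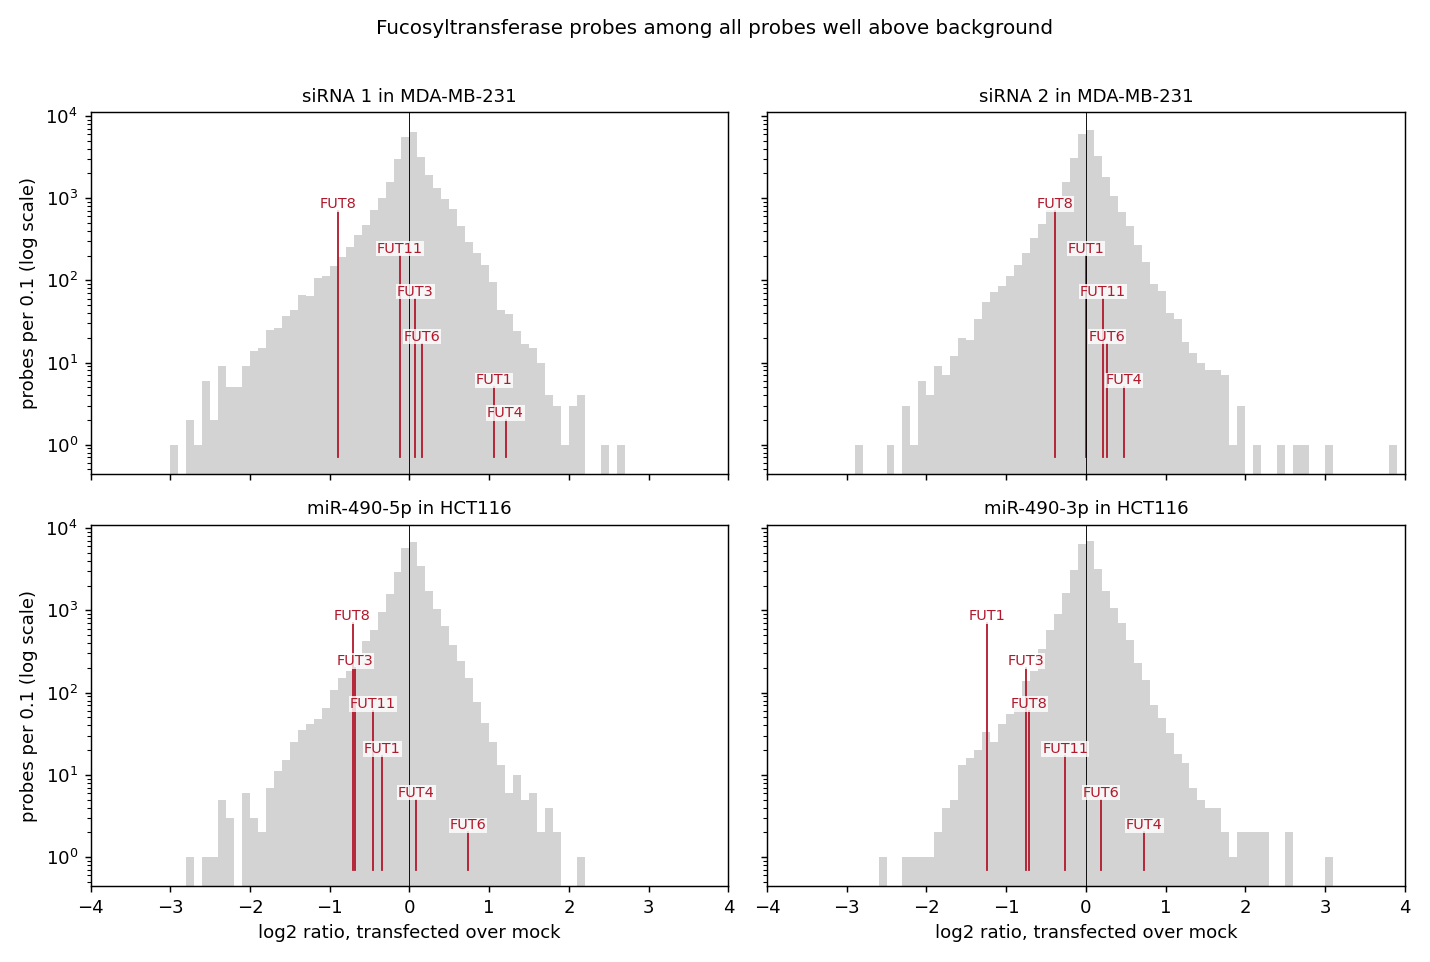
Number of probes per 0.1 of log2 ratio (grey bars, log axis) among the probes well above background on the 2 si-GINS1 arrays and the 2 miR-490 arrays, with the measured FUT1, FUT3, FUT4, FUT6, FUT8 and FUT11 probes as red lines whose height only separates the names. FUT1 lies in the high tail with siRNA 1 and in the low tail with miR-490-3p, and FUT8 lies to the left of 0 on all 4 arrays.

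The 2 si-GINS1 arrays ask which transcripts of MDA-MB-231 differ after GINS1 is knocked down. FUT1 had a log2 ratio of 1.06 with siRNA 1 and 0.00 with siRNA 2. Its spot read 66.7 in mock and 236 in transfected cells with siRNA 1, and 68.7 and 77.3 with siRNA 2. The mock readings were alike and the difference lay in the transfected channel of 1 array. FUT1 and FUT4 were the members at or above 1 with siRNA 1, where 0.876% of 29685 probes were. The place of FUT1 in this count is fixed by its choice on that array. None was at or below -1, where 1.85% of probes were. With siRNA 2 no member passed either limit, against 0.517% of 28632 probes at or above 1 and 1.15% at or below -1.

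FUT4 had a log2 ratio of 1.21 with siRNA 1 and 0.48 with siRNA 2, a mean of 0.84 ± 0.51 (SD, n = 2). The spot read 78.4 in mock and 310 in transfected cells with siRNA 1, and 88.1 and 159 with siRNA 2. Both arrays were above 0, and the adjusted p of the limma fit was 0.0587, with a 95% interval from 0.40 to 1.29. That fit shares 1 spread over all groups, and FUT4 varied less with miR-139-5p (SD 0.06) and miR-139-3p (SD 0.04). With the 2 arrays alone its adjusted p in limma was 0.544. FUT8 had -0.89 with siRNA 1 and -0.38 with siRNA 2, a mean of -0.64 ± 0.36 (SD, n = 2), with an adjusted p of 0.056 in the same limma fit. In mock cells the FUT8 spot read 1829 and 1978, and in transfected cells 1513 with siRNA 1 and 1948 with siRNA 2. Under median centring in place of loess FUT8 stood at -0.31 and -0.04. Less the mean ratio of the groups of other cell lines its mean was -0.22 (adjusted p = 0.485 in limma). What was taken away also holds its ratio of -0.71 with either miR-490 strand. FUT8 and FUT4 thus lay on opposite sides of 0 on both arrays, each further from 0 with siRNA 1.

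FUT1, chosen on the siRNA 1 array, was not tested here. Of the 8 other member probes tested against 0 in this group none was called at an adjusted p under 0.05 by limma, against 6.96% of the 27803 probes tested, and 2, FUT4 and FUT8, had an unadjusted p under 0.05, as 25.9% of all probes tested did. The called probes numbered 925 higher and 1009 lower. Under median centring in place of loess these were 2690 higher and 285 lower, and that scaling moved the median of all probes of an array by up to 0.146 on the log2 scale, and FUT8 then stood at a mean of -0.17. FUT4 was called with an offset of 10 (adjusted p = 0.0381 in limma) and without background correction (0.0371). Its adjusted p in limma was 0.1955 once the mean ratio of the groups of other cell lines was taken away. That mean also holds the FUT4 ratio of 0.74 with miR-490-3p. Over all alternatives the adjusted p of FUT4 ran from 0.000607 to 0.544 in limma and that of FUT8 from 0.00146 to 0.537. Without siRNA 1 both FUT4 (adjusted p = 0.00668 in limma) and FUT8 (0.0189) were called, and without siRNA 2 both were as well (0.000607 and 0.00146), where the remaining array is assumed to vary like the other groups.

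No other member was called on these arrays in the fit reported. The first FUT10 probe gave -0.06 with siRNA 1 and 0.26 with siRNA 2, and the first FUT11 probe -0.12 and 0.21. The second FUT10 probe gave 0.01 and 0.02. FUT2 gave 0.16 and -0.10, and FUT7 gave 0.01 and 0.06. The first probes of FUT10 and FUT11 and the FUT2 probe therefore had opposite signs under the 2 siRNAs, which under median centring held for FUT2 but not for FUT10 (0.10 and 0.32) or FUT11 (0.16 and 0.35), and the means of these 5 probes had adjusted p values between 0.512 and 0.914 in limma. The first FUT6 probe gave 0.16 and 0.27 (adjusted p = 0.317 in limma). Without siRNA 1, where the lone array is assumed to vary like the other groups, the first probes of FUT10 (adjusted p = 0.0313 in limma) and FUT11 (0.0485) were called at the siRNA 2 values. Under median centring the first FUT6 probe was called at a mean of 0.99 (adjusted p = 0.0292 in limma). FUT3 and the second probes of FUT6 and FUT11 were not tested, because they were not well above background on both arrays.

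**Figure D3:**
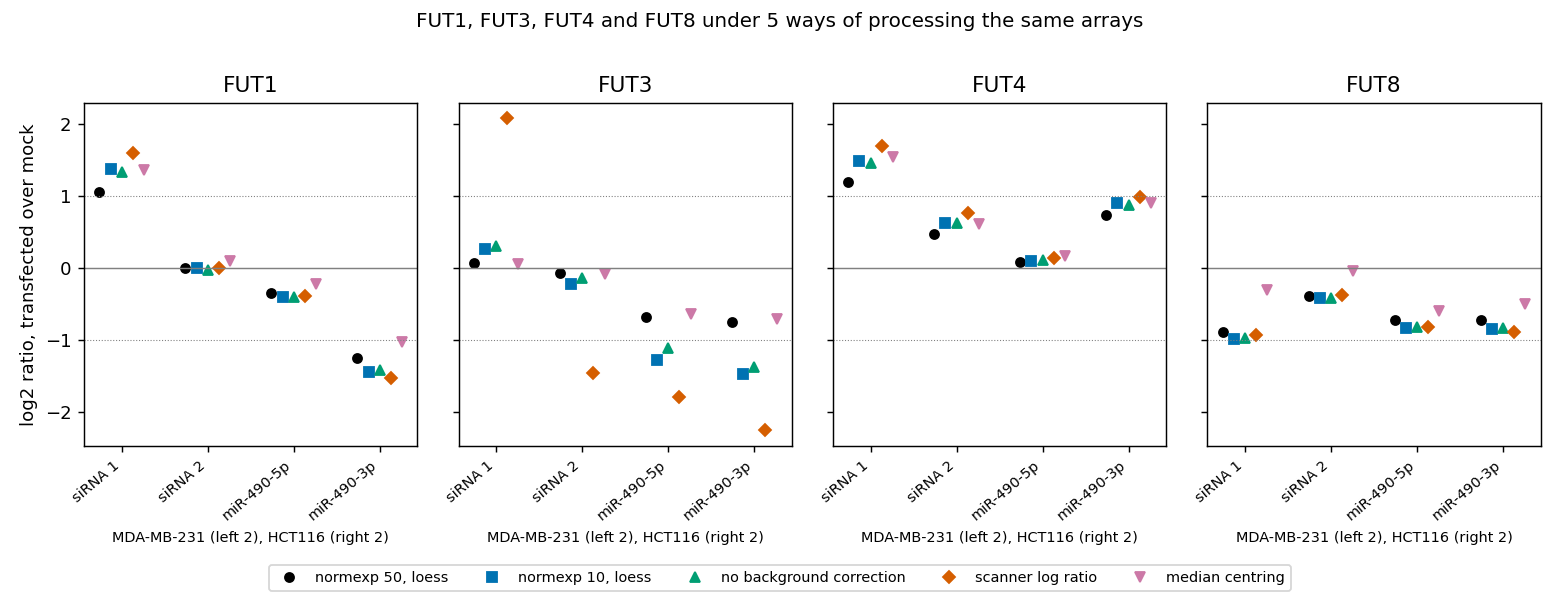
Log2 ratio of FUT1, FUT3, FUT4 and FUT8 on the 2 si-GINS1 arrays and the 2 miR-490 arrays under 5 ways of processing the same spots, with dotted lines at -1 and 1. FUT1 stays near 1 or above with siRNA 1 and at or below -1 with miR-490-3p, while FUT3 runs from 0.06 to 2.08 with siRNA 1, where it is close to background.

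In the renal lines the arrays ask which transcripts differ after either strand of miR-139. None of the 7 member probes tested with miR-139-5p was called, against 0.0129% of 23288 probes, and none of 7 with miR-139-3p, against 0% of 22813. At an unadjusted p under 0.05 there was 1 member probe for each strand, the first of FUT6, and 591 and 1014 of all probes. That FUT6 probe had log2 ratios of 0.08 in A498 and 0.54 in 786-O with miR-139-5p. With miR-139-3p it had 0.35 and 0.37. FUT8 had log2 ratios of -0.10 in A498 and -0.23 in 786-O with miR-139-5p, a mean of -0.16 ± 0.09 (SD, n = 2). With miR-139-3p the values were -0.15 and -0.05, a mean of -0.10 ± 0.07 (SD, n = 2). FUT4 gave 0.12 and 0.04 with miR-139-5p and 0.11 and 0.06 with miR-139-3p. FUT1 gave -0.14 and 0.00 with miR-139-5p and -0.04 and 0.03 with miR-139-3p, the last of these below background in either channel. FUT4 was thus above 0 on all 4 renal arrays, and FUT8 below 0 on all 4 except under median centring, which put it at 0.13 and 0.10 on 2 of them. No value of either gene there reached the size seen with siRNA 1.

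The difference between the strands, in which a dye effect common to all arrays cancels, was not called for any of 6 member probes tested, against 0% of 22178 probes, of which 150 had an unadjusted p under 0.05 in limma. The first FUT11 probe stood above 0 in both lines with miR-139-5p, at 0.07 and 0.10, and below 0 in both with miR-139-3p, at -0.11 and -0.05. Its difference of -0.16 had a 95% interval from -0.49 to 0.16. That of FUT8 was 0.07, with an interval from -0.40 to 0.53, and that of FUT4 was 0.00, from -0.62 to 0.62. The intervals use 1 spread shared by all groups, in which the 2 siRNAs differed most (SD 0.51 for FUT4, 0.36 for FUT8 and 0.23 for FUT11). Within A498 and 786-O the strand difference was -0.01 and 0.01 for FUT4 and -0.04 and 0.18 for FUT8. The intervals thus include differences of either sign but do not measure the spread of the renal arrays alone.

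3 members kept 1 sign on all 8 arrays. FUT8 was below 0 on every array, from -0.89 to -0.05, though not under median centring, and FUT4 above 0 on every array, from 0.04 to 1.21. The first FUT6 probe was above 0 as well, from 0.08 to 0.74. Of 20627 probes measured on all 8 arrays, 2.5% were below 0 on all and 3.19% above 0 on all, and 6 member probes were among those measured. FUT4 and FUT6 kept their sign under median centring too, where 14.6% of probes were above 0 on all arrays. The share of a common dye effect in these signs was not tested, and the arrays of a line may share a mock extract.

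The 2 probes of FUT6 did not give the same picture. The first, at chr19:5830742-5830801 (hg19, minus strand), was well above background on all 8 arrays, with mock spots reading 27790 to 42243. The second, at chr19:5831537-5831596 on the same strand, read 15.9 to 24.5 and was well above background on 1 array in 1 channel. The array annotation gives the second probe transcripts of both FUT3 and FUT6, so it could not have told these apart. The first probe shares a run of at least 16 letters, on either strand, with 28 other probes, whereas each of the other 11 member probes shares such a run with none. Whether these shared letters bear on its brightness was not tested, and no level of FUT6 is drawn from it.

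FUT1, FUT3, FUT4, FUT8 and the FUT10 probes differed between mock cells of the 4 lines, and HCT116 held the highest FUT1, FUT3, FUT4 and FUT10. Levels are log2 Cy3 signals, each probe set against itself. FUT1 read 8.38 and 8.55 on the 2 HCT116 arrays, 6.82 and 6.80 in A498, 6.49 and 6.49 in MDA-MB-231 and 5.93 and 5.83 in 786-O. The lines did not overlap, and these FUT1 levels are given as a description without a test. In 786-O the FUT1 probe was well above background on 1 of 2 arrays, so no fold against that line is given. The HCT116 mock signal on the miR-490-3p array (8.55 for FUT1) is also the denominator of the ratio by which FUT1 and FUT3 were chosen. Likewise the MDA-MB-231 mock signal on the siRNA 1 array (6.49 for FUT1) is the denominator of the other ratio by which FUT1 was chosen. The HCT116 levels of both genes and the MDA-MB-231 level of FUT1 are therefore not independent of that choice.

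FUT8 had another order. It read 10.31 and 10.38 in MDA-MB-231, 8.77 and 8.70 in 786-O, 8.33 and 8.24 in HCT116 and 7.47 and 7.10 in A498. MDA-MB-231 was 8.33-fold above A498, and all 6 pairs of lines were called by limma (adjusted p at most 0.00108). The 2 A498 readings, with an SD of 0.27, differed more than those of any other line. The smallest gap, 0.45 between 786-O and HCT116, fell to nothing when each array was scaled by its 75th percentile, which put both lines at 1.81.

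FUT3 read 6.59 and 6.57 in HCT116 and at most 5.82 in the other lines, where it was not well above background on any array. Against those lines HCT116 was at least 1.66-fold higher than A498, at least 1.64-fold higher than 786-O and at least 1.70-fold higher than MDA-MB-231, set against the lowest signal that was well above background or the dim probe's own. FUT4 read 7.03 and 7.01 in HCT116, 6.62 and 6.70 in MDA-MB-231, 6.57 and 6.56 in 786-O and 6.05 and 6.17 in A498, with MDA-MB-231 and 786-O not called apart (adjusted p = 0.0885 in limma). The offset of 50 narrows all such gaps for dim probes. Without background correction FUT1 differed between HCT116 and 786-O by 8.30 against 4.47 in place of 8.46 against 5.88.

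The FUT10 probes, at chr8:33246454-33246513 and chr8:33228680-33228739 (hg19, minus strand), both had their highest mean in HCT116, under every scaling tried, and agreed on the order of the other lines under quantile normalization but not under scaling by the 75th percentile. The first had means of 6.45 in HCT116, 6.19 in MDA-MB-231, 6.13 in A498 and 5.94 in 786-O, and the second 6.50, 6.31, 6.12 and 5.96. A498 and MDA-MB-231 were not called apart by the first probe (adjusted p = 0.287 in limma) and were by the second (0.0164). The first FUT11 probe ran from 6.56 in A498 to 6.78 in MDA-MB-231, and its second probe (chr10:75535214-75535273) was above background in no mock sample. FUT2 was well above background in HCT116, at a mean of 6.04, and in MDA-MB-231, at 5.88, and in neither renal line. FUT7 lay between 5.83 and 5.98 in all lines, close to background.

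**Figure D4:**
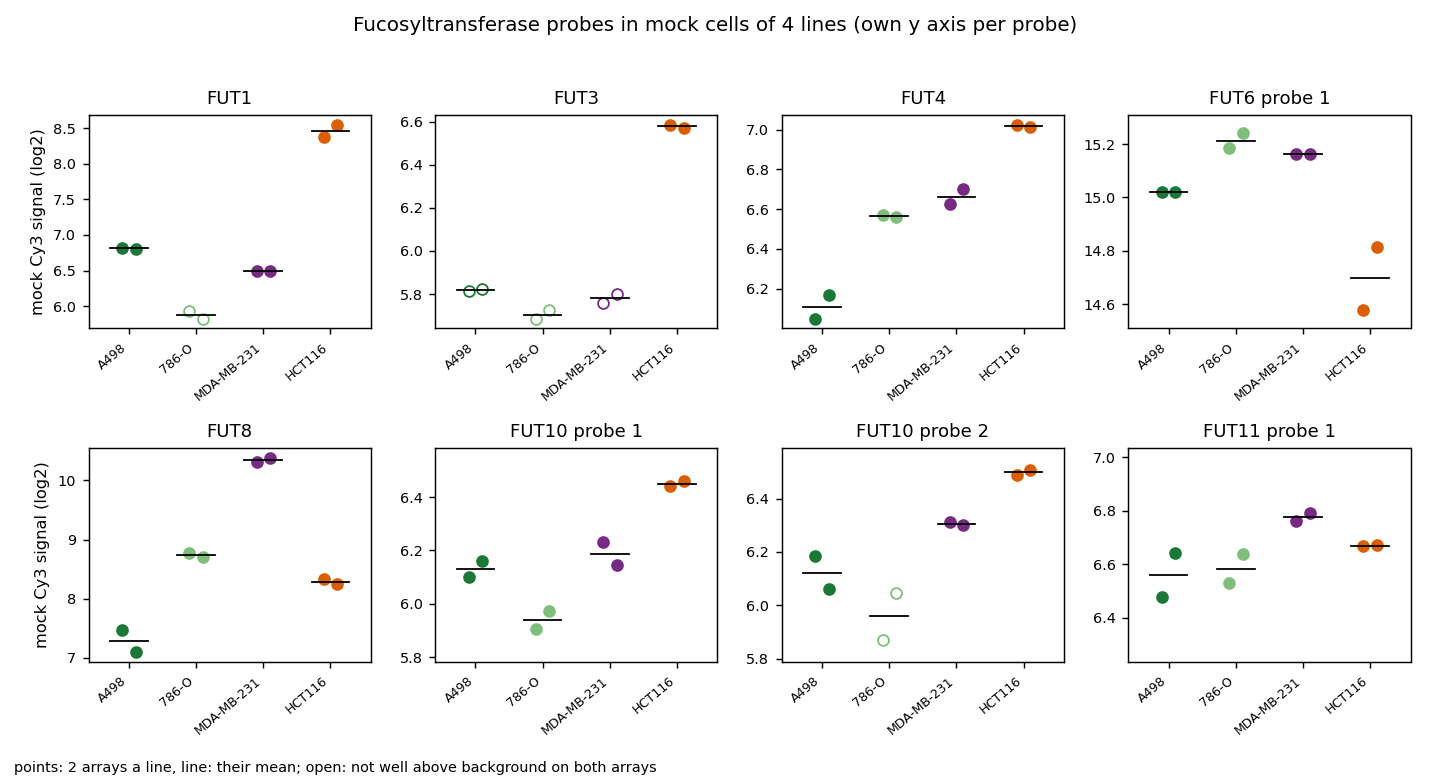
Log2 Cy3 signal in mock cells of A498, 786-O, MDA-MB-231 and HCT116 for 8 fucosyltransferase probes, each with its own axis, as 1 point per array and a line at the mean of 2 arrays. FUT1, FUT3, FUT4 and both FUT10 probes are highest in HCT116 and FUT8 is highest in MDA-MB-231, and open points mark lines not well above background on both arrays.

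Counted over all pairs of lines, 45 of 60 tests of member probes were called. This count and those by pair include FUT1 and FUT3, whose mock levels are not independent of their choice. By pair, the counts of 10 tested were 7 for A498 against 786-O, where 61.8% of all probes were called, 6 for A498 against MDA-MB-231 (69.3%) and 8 for A498 against HCT116 (71.2%). They were 7 for 786-O against MDA-MB-231 (65.8%), 9 for 786-O against HCT116 (69.3%) and 8 for MDA-MB-231 against HCT116 (64.5%). With FUT1 and FUT3 counted, the members' shares were thus near those of all probes, and no share without these genes is given. The labels do not say whether the 2 arrays of a line carried separate mock extracts, so p measures only the spread between these arrays, which may be technical.

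The other genes of fucosylation were taken from lists of 38 genes with 56 probes. With si-GINS1, 42 of these probes were tested and 2 were called, both lower, where 6.96% of all probes were called, and their lists had medians between -0.14 and 0.14, against 0.01 over all probes tested. GCNT1, which starts the core branch of O-glycans on which sialyl Lewis x is often built, fell by 0.75 ± 0.11 (SD, n = 2; log2 ratios of -0.68 and -0.83, adjusted p = 0.0233 in limma). FPGT, which makes GDP-fucose from salvaged fucose, had -0.32 and -0.63 (adjusted p = 0.049 in limma), and its other probe -0.01 and -0.39. GCNT1 was not called under median centring (adjusted p = 0.0906 in limma) or with the scanner's log ratio (0.0982), and FPGT under neither (0.169 and 0.136). Both also lost the call with the variance trend (0.0558 for GCNT1 and 0.0669 for FPGT, adjusted p in limma) and with the 2 arrays alone (0.523 and 0.524). FPGT lost it further without the filter on dim probes (adjusted p = 0.0718 in limma) and with the dye bias removed (0.0613). Over all alternatives the adjusted p of GCNT1 ran from 0.00144 to 0.523 in limma and that of FPGT from 0.00317 to 0.524.

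3 more genes of the lists passed 1 on the log2 scale on an array. SLC35C1, the transporter that brings GDP-fucose into the Golgi, had -1.15 with siRNA 1 and 0.30 with siRNA 2. MGAT2, which starts a branch of N-glycans, had 1.16 with siRNA 1 and -0.75 with siRNA 2. The siRNAs thus gave opposite signs for both. B3GNT3, which lengthens the core of O-glycans, had -1.17 for the 5p strand of miR-490 and -0.84 for the 3p strand. It was below 0 on the other arrays too, at -0.37 with siRNA 1 and -0.34 with siRNA 2, except with miR-139-5p in 786-O (0.03).

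On the miR-490 arrays 40 probes of the lists were measured, with medians of -0.01 for miR-490-5p and 0.01 for miR-490-3p, against 0.01 for all probes of each array. None of them but B3GNT3 with miR-490-5p was past the limit. For miR-139 none of 38 list probes tested with miR-139-5p, none of 37 with miR-139-3p and none of 36 for the difference was called.

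**Figure D5:**
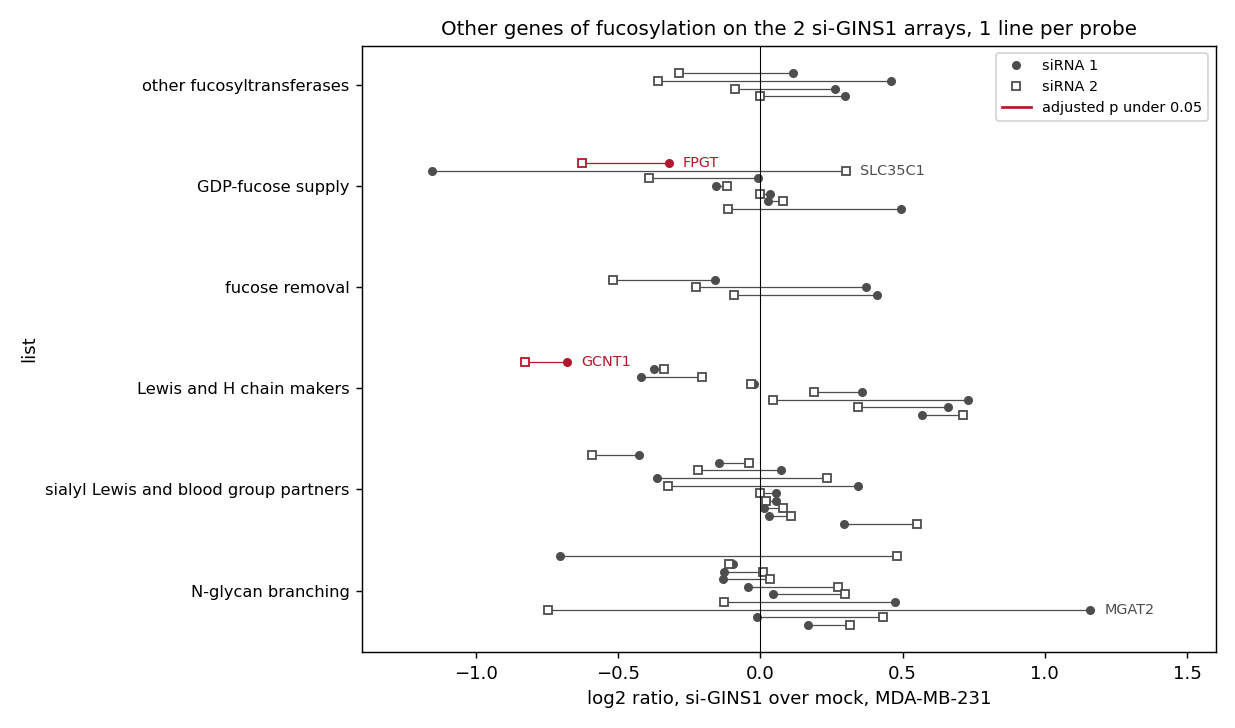
Log2 ratio of si-GINS1 over mock MDA-MB-231 cells for each tested probe of the 6 lists of other fucosylation genes, with siRNA 1 as a filled circle joined to siRNA 2 as an open square. GCNT1 and FPGT, in red, have both siRNAs below 0, while SLC35C1 and MGAT2 have the siRNAs on opposite sides of 0.

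The genes most like FUT1 over the 8 arrays, among 3333 probes measured on all 8 with a range of at least 1, were MAVS (Pearson r = 0.99), MSTO1 (0.98), TTC28-AS1 (0.97), RFXANK (0.97) and LOC100133616 (0.96). MAVS had 0.85 with siRNA 1 and -0.80 with miR-490-3p, the same 2 arrays on which FUT1 was furthest from 0. FUT3 itself was measured on 4 of the 8 arrays, so the rest of its pattern is close to background. The genes most like FUT3 were an unnamed Ensembl transcript (0.99), NUCB2 (0.99), RBCK1 (0.99), lnc-CETP-1 (0.98) and DNAJC3 (0.98). NUCB2 had -1.25 and -1.74 on the arrays of the 5p and 3p strands of miR-490. These r values rest on few arrays with values away from 0, and the arrays share dyes, slide and, within a line, possibly the mock extract. FUT1 was chosen on the siRNA 1 and miR-490-3p arrays and FUT3 on the miR-490-3p array. The r values are therefore not independent of that choice.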

How the data were processed

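Total RNA of mock (Cy3) and transfected (Cy5) cells was hybridised on Agilent arrays. The authors deposited the scanner intensity of each spot and log10 ratios made by Feature Extraction (annotation build hg19), whose background subtraction and dye normalization are its own. The value table equals these log10 ratios. From the intensities, background was corrected by normexp (offset 50), ratios were normalized by loess within arrays with control and outlier spots at weight 0, and spots were averaged by probe. limma 3.58.1 (R 4.3.3) fitted 8 arrays with 5 groups, and group means were tested against 0 (two-sided, Benjamini-Hochberg over probes that each array of the group measured well above background in either channel, adjusted p under 0.05). Mock levels were Cy3 intensities after normexp and quantile normalization, with 6 contrasts of 4 lines. The miR-490 groups, with 1 array each, had a rule of size, a log2 ratio past 1 in either direction. All member probes are reported. Other fucosylation genes are named where called or past that size, and likeness was read over 8 arrays. Fits were tested on simulated data. The members and lists were chosen with earlier results of these data known. Slide and scan were the same for all arrays. Depth of an array is its signal over background, and the number of arrays limits precision. Alternatives were other background corrections, scalings, filters, priors and blocks, a removed dye bias and each array left out. The dye bias removed was the mean ratio of the groups of other cell lines, which also holds their own responses.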

Additional observations from a re-analysis of the deposited data

How the results depend on the processing

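No member was called with si-GINS1 in the fit as reported, and 1 was under no background correction and under an offset of 10 (FUT4 in each) and 1 under median centring (the first FUT6 probe). With the cell line as a random block 2 were called, FUT4 and FUT8. Without siRNA 1 there were 4, FUT4, FUT8 and the first probes of FUT10 and FUT11, and without siRNA 2 there were 2, FUT4 and FUT8, where the lone array is assumed to vary like the other groups. Of all probes, 1934 were called as reported, 75 with the scanner's log ratio, 2975 under median centring, 660 with the dye bias removed, 10518 with the block, 6707 without siRNA 1, 9473 without siRNA 2 and 0 both with the variance trend and with the 2 arrays alone. The cause was not tested. For miR-139-5p, miR-139-3p and their difference no alternative called a member. The replicate block by cell line also called 0 for the difference. The deviations of the strands within a line correlated at 0.08, so the lines share a number but were not taken as pairs. Over all probes miR-139-5p gave 0 to 7 calls against 3 as reported and miR-139-3p 0 to 13 against 0. On the miR-490-3p array 1 member passed the size rule as reported, 2 without background correction and 2 with an offset of 10 (FUT1 and FUT3), and 3 with the scanner's log ratio (also the second FUT6 probe). On the miR-490-5p array 0 passed as reported and 1 each without background correction, with an offset of 10 and with the scanner's log ratio (FUT3) and under median centring (the first FUT6 probe). Between mock lines 45 pairs were called, 40 to 47 without 1 array, and 22 of 30 when only probes above background on all 8 arrays entered. Dim members, FUT2, FUT3, FUT7 and the second probes of FUT6 and FUT11, carry little information because their signals lie near background.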
